A study of Mus musculus with 6 samples.

Results

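The 8 genes described here are Txnip, its alpha-arrestin relatives Arrdc1, Arrdc2, Arrdc3 and Arrdc4, and the glucose-sensing transcription factor genes Mlx, Mlxip (which encodes MondoA) and Mlxipl (which encodes ChREBP). They are 8 of the 32285 genes in the deposited table, found by symbol through their Ensembl identifiers, and all 8 passed the filter on low counts that kept 14912 genes. The set was chosen from the contrast reported here: Txnip and Arrdc4 had been called lower in pyruvate medium, and the other 6 were added as members of the same family or pathway. The differences between media below are therefore descriptions, with a standard error or an interval. Which of the 8 were called in a fit of the whole table is stated as part of how the set arose, and is no independent test of them.

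RNA was sequenced from cultured mouse germline stem cells (GS cells), which are spermatogonial stem cells kept in culture. All 6 libraries came from the wild-type DBA-GFP GS cell line. The control group, 3 libraries, was cultured in complete medium, and the pyruvate group, 3 libraries, in a medium named for 8 mM pyruvate; the labels give neither medium's other nutrients nor the culture time. Whether the libraries of a group were separate cultures is not stated, so a p-value here reflects how far these libraries scatter, and that scatter may be technical. In these bulk samples, fewer cells of a type and less RNA per cell cannot be told apart. Library totals ran from 20918312 to 26413080 counts. All 14 germ cell and undifferentiated spermatogonia markers had at least 10 counts in every library, with a summed level of 3902 to 4563 CPM (counts scaled to a common library size) in control and 3743 to 4142 in pyruvate medium. Of 10 fibroblast feeder markers, 8 did so, and the list summed to 410.2 to 472 CPM in control and 396 to 428 CPM in pyruvate medium, most of it from Fn1. The 7 markers of differentiating or meiotic germ cells summed to 328 to 441 CPM in control and 237 to 337 in pyruvate medium. Among them Kit, Stra8, Sycp1 and Prdm9 had log2 fold changes below 0, and Sycp3, Dmc1 and Spo11 above 0. Of these genes only Spo11 had groups that did not overlap (3.68 to 4.83 against 4.86 to 5.86 CPM). Of 7 Sertoli cell markers 2 reached 10 counts in every library (summed 24.9 to 29.0 and 23.4 to 28.9 CPM, with Fshr at 0). Of 6 macrophage markers 1 did so (summed at most 7.40 and 6.77 CPM, with Adgre1 at 0). Single germ cell and spermatogonia markers differed in both directions. Bcl6b and Lhx1 were lower in pyruvate medium (log2 -0.50 and -0.42), and Nanos2 and Nanos3 were higher (0.52 and 0.59). The groups did not overlap for these genes, as for 10.6% of all tested genes downward and 11.9% upward. The part of other cell types in the results below was not tested. On the first principal component control replicate 2 stood apart at 36.5, and pyruvate replicate 1 on the other side at -27.2. The rest lay between -4.64 and 0.81. On the second component control replicates 1 and 3 lay at -23.4 and -21.4. The pyruvate libraries lay between 9.84 and 15.1 there, and control replicate 2 at 7.33, nearer to them than to the other control libraries. Control replicate 2 lay farthest out on the first component, so the members' fold changes are also given without it. The same holds for the list values that it turned or moved by over 1.5 times. Fold changes without pyruvate replicate 1 are given for Arrdc2, Mlxipl and Slc2a1.

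Alpha-arrestins are cytosolic adaptors that carry ubiquitin ligases of the Nedd4 family to membrane proteins and so guide those proteins into endosomes. Txnip binds thioredoxin and, like Arrdc4, promotes the removal of glucose transporters from the cell surface. MondoA and ChREBP each pair with Mlx, respond to phosphorylated hexoses, and activate genes through the carbohydrate response element (ChoRE), a pair of E-box-like half-sites separated by 5 bases. Txnip and Arrdc4 are well-described targets of these factors, which makes their transcripts a common readout of intracellular glucose metabolites.

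The promoters of the pair with the large differences are shown first, since both genes are described as ChoRE targets. Sequences are RefSeq windows on GRCm38.p6, from 250 bases before to 50 bases after an annotated start, read 5′ to 3′ on the gene's own strand. All 8 genes matched, with 11 windows in all. Capitals mark tandem half-sites (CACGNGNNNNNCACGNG), the E-box CACGTG and the CCAAT box (CCAAT), each searched on both strands; no match overlapped another of these motifs in the windows shown. The Txnip window lies on the plus strand at chr3:96557707-96558006 and the Arrdc4 window on the minus strand at chr7:68749189-68749488.
Txnip: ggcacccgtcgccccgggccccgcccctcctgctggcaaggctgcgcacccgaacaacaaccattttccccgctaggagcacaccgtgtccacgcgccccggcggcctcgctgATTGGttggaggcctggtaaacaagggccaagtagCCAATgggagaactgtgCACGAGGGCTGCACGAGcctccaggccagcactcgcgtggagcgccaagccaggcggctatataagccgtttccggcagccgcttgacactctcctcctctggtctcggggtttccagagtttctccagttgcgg
Arrdc4: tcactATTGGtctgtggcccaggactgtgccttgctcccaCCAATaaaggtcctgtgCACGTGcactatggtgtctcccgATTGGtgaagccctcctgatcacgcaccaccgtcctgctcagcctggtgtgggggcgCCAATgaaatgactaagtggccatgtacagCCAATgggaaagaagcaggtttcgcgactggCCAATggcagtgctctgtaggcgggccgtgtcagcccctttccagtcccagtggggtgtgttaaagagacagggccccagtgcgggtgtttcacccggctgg

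In the Txnip window, tandem half-sites began 85 bases before the start, and CCAAT boxes began 102 and 137 bases before it. Tandem half-sites were present in 16 of 32851 windows of this length (0.0487%), but this spacing was searched because it is the arrangement described for Txnip, so its match there is no independent finding. The Arrdc4 window held no tandem half-sites and 1 E-box, which began 193 bases before the start. E-boxes occurred in 7.15% of all windows, and among the other genes also in the Mlx window, 40 bases before the start, and in 1 of 2 Mlxipl windows, 98 bases before it. The windows of Arrdc1, Arrdc2, Arrdc3 and Mlxip held neither. The Arrdc4 window held 6 CCAAT boxes, a number reached or passed in 26 of the 32851 windows (0.0791%), and Txnip held 2, reached in 11.7%. This motif was searched, and the count of 6 taken, after the Arrdc4 window had been seen, so the share only describes that window. The ChoRE consensus in its published form matched no window of the 8 genes and 0.119% of all windows. These are matches of letters within 300 bases and say nothing of sites farther away.

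**Figure D1:**
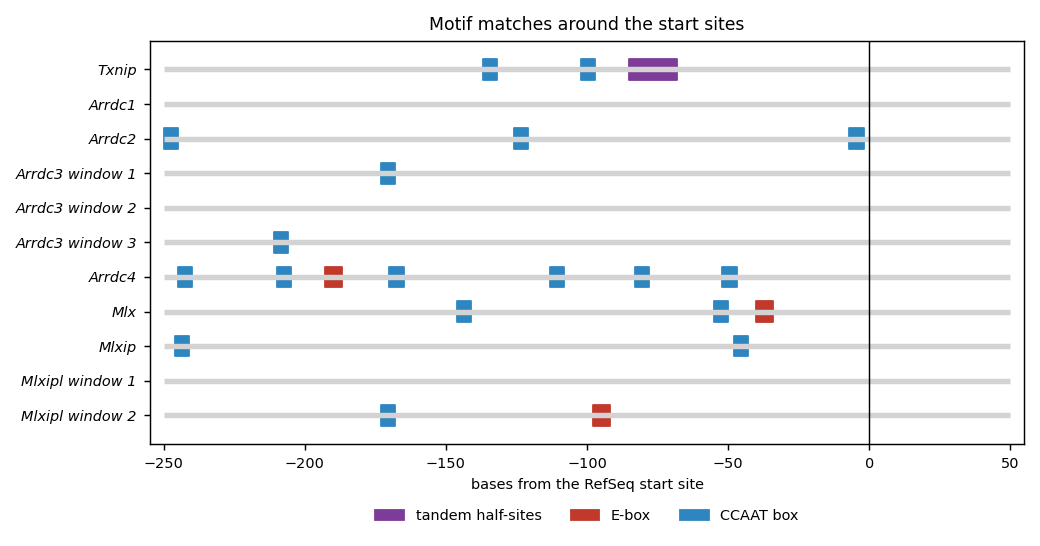
Positions of motif matches (x axis, bases from the RefSeq start site, from 250 before to 50 after) in each promoter window of the 8 genes (y axis). Txnip has the only tandem half-sites among these windows, and Arrdc4 has an E-box among 6 CCAAT boxes.

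Txnip (ENSMUSG00000038393, chromosome 3, 96557957 to 96561883, plus strand, GRCm38) was the member with the largest difference between media. After scaling by edgeR's trimmed mean of M-values (TMM) it stood at 258, 281 and 250.4 CPM in control replicates 1, 2 and 3, and at 117, 107 and 97.2 CPM in pyruvate replicates 1, 2 and 3. Every pyruvate library lay below every control library, with a wide gap between the groups. The group means were 263 ± 16.3 and 107 ± 9.72 CPM (SD, n = 3 per group), a level lower by 59.4% in pyruvate medium. The edgeR log2 fold change was -1.30 (SE 0.091, 95% interval -1.51 to -1.09), and -1.25 without control replicate 2. The raw counts behind these values were 5244 to 7166 in control and 2138 to 2927 in pyruvate libraries, so counting error is small beside the difference.

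Arrdc4 (ENSMUSG00000042659, chromosome 7, 68736995 to 68749241, minus strand), which like Txnip is induced by glucose in many cell types, was also lower in pyruvate medium. It stood at 50.2, 55.3 and 53.0 CPM in control replicates 1, 2 and 3 and at 22.2, 25.4 and 25.4 CPM in the pyruvate replicates. The groups did not overlap, and the log2 fold change was -1.12 (SE 0.094, 95% interval -1.33 to -0.90), or -1.08 without control replicate 2. The intervals of the 2 genes' fold changes overlapped, and the difference between the fold changes was not tested. Within libraries, Txnip exceeded Arrdc4 per kilobase of exon 6.64-, 6.58- and 6.11-fold in control replicates 1, 2 and 3 and 6.81-, 5.42- and 4.95-fold in the pyruvate replicates. The ratio thus spread more in pyruvate medium than in control, and the groups overlapped.

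Over all genes, the quasi-likelihood test of edgeR (adjusted p under 0.05, Benjamini-Hochberg) called 8 of 14912 (0.0536%), 3 higher and 5 lower (0.0335%) in pyruvate medium; scaling by library totals called 8 higher and 6 lower, and upper-quartile scaling 8 higher and 7 lower. Of the 8 genes described here 2 were among them, Txnip and Arrdc4, which is the fact that chose the set. The calls over the whole table changed with the libraries kept. In the 6 fits that each left out 1 library, Txnip was called in 4, not without pyruvate replicate 2 or 3. Arrdc4 was called in 2, without control replicate 1 or 2. Over all genes, 3 of 15263, 625 of 15042 and 1 of 15281 were called without control replicate 1, 2 or 3. Without pyruvate replicate 1, 2 or 3 the counts were 1 of 15024, 0 of 15009 and 0 of 15255. The 1 gene called without control replicate 3 or pyruvate replicate 1 was Txnip. The fold changes moved far less, from -1.36 to -1.24 for Txnip and from -1.15 to -1.05 for Arrdc4.

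**Figure D2:**
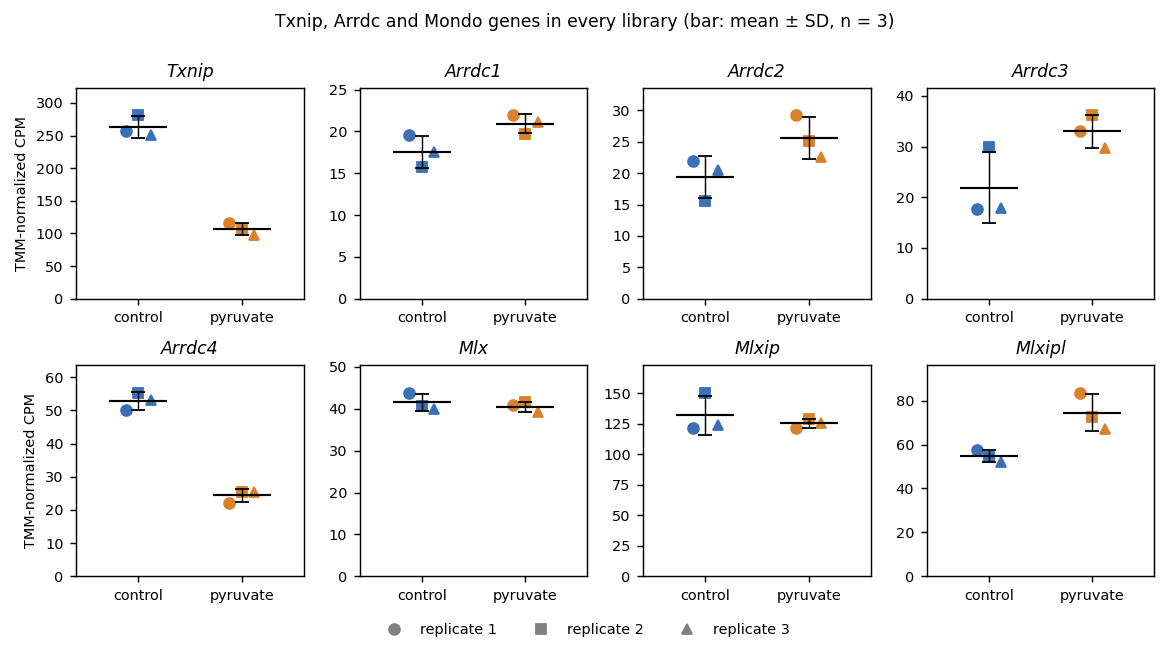
Level of each of the 8 genes (y axis, TMM-normalized CPM, starting at 0) in the 3 control and 3 pyruvate libraries, with the mean and SD of each group as bars and the replicate number as the symbol. Txnip and Arrdc4 are lower in every pyruvate library, Arrdc1, Arrdc2 and Mlxipl are higher in every one, and Arrdc3, Mlx and Mlxip overlap.

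The other 3 alpha-arrestins stood on the opposite side. Arrdc1 (ENSMUSG00000026972, chromosome 2, 24925352 to 24935252, minus strand), which recruits the endosomal protein Tsg101 to the plasma membrane for vesicle budding, stood at 19.5, 15.7 and 17.5 CPM in control replicates 1, 2 and 3. In the pyruvate replicates it stood at 22.0, 19.7 and 21.2 CPM. The groups were separated by a narrow margin, 19.54 against 19.67 CPM, and the log2 fold change was 0.25 (SE 0.11, 95% interval -0.00040 to 0.50). Without control replicate 2 it was 0.17 (95% interval -0.049 to 0.40).

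Arrdc2 (ENSMUSG00000002910, chromosome 8, 70835129 to 70839720, minus strand) stood at 22.0, 15.6 and 20.4 CPM in control replicates 1, 2 and 3 and at 29.2, 25.1 and 22.5 CPM in the pyruvate replicates. Here too the lowest pyruvate library lay only just above the highest control, and control replicate 2 was the lowest of all. The log2 fold change was 0.41 (SE 0.15, 95% interval 0.062 to 0.76), and 0.27 (0.014 to 0.53) without that library. It was 0.31 without pyruvate replicate 1, the highest library.

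Arrdc3 (ENSMUSG00000074794, chromosome 13, 80883384 to 80896042, plus strand), an adaptor in the trafficking of beta-adrenergic receptors, stood at 17.7 and 18.0 CPM in control replicates 1 and 3 but at 29.97 CPM in control replicate 2. The pyruvate replicates stood at 33.0, 36.2 and 29.7 CPM, so that control replicate 2 lay among them and the groups overlapped through that library alone. The log2 fold change was 0.59 (SE 0.20, 95% interval 0.13 to 1.05) with all libraries and 0.89 (SE 0.10, 95% interval 0.66 to 1.12) without control replicate 2. Leaving out that library thus moved the value by more than 1.5 times.

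Arrdc5 (ENSMUSG00000073380), the remaining Arrdc gene, had 0 to 6 counts per library and was not tested. In all, 2 of the 8 genes were lower and 3 higher with no overlap between groups, against 10.6% and 11.9% of all tested genes. Since this contrast chose the set, nothing is read from these counts.

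**Figure D3:**
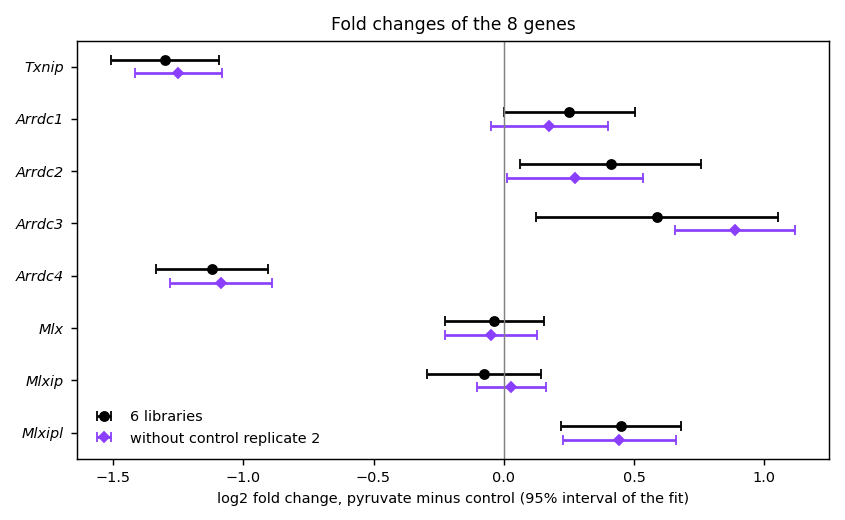
Fitted log2 fold change of each gene (x axis, pyruvate minus control) with its 95% interval, for all 6 libraries (circles) and without control replicate 2 (diamonds). Txnip and Arrdc4 lie beyond -1 in both fits, Arrdc1, Arrdc2, Arrdc3 and Mlxipl lie above 0, and Mlx and Mlxip lie near 0.

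Because Txnip outweighed its relatives, the summed alpha-arrestin transcript level followed it. Per kilobase of exon, the 5 genes together came to 114 ± 5.26 CPM per kb in control and 61.8 ± 4.16 in pyruvate medium (SD, n = 3). Txnip made up 73.4%, 75.3% and 73.2% of that sum in control replicates 1, 2 and 3, and 56.7%, 55.3% and 54.1% in the pyruvate replicates. Arrdc1, Arrdc2 and Arrdc3 together came to 16.5 ± 0.83 CPM per kb in control and 21.5 ± 1.46 in pyruvate medium, and the libraries of the groups did not overlap (15.9 to 17.4 against 20.2 to 23.1). In that sum the opposite deviations of Arrdc2 and Arrdc3 in control replicate 2 largely offset each other. These 3 are the alpha-arrestins that lay above 0 in this same contrast, and Arrdc3 on its own overlapped between groups. Nothing is therefore read from the lack of overlap in their sum.

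**Figure D4:**
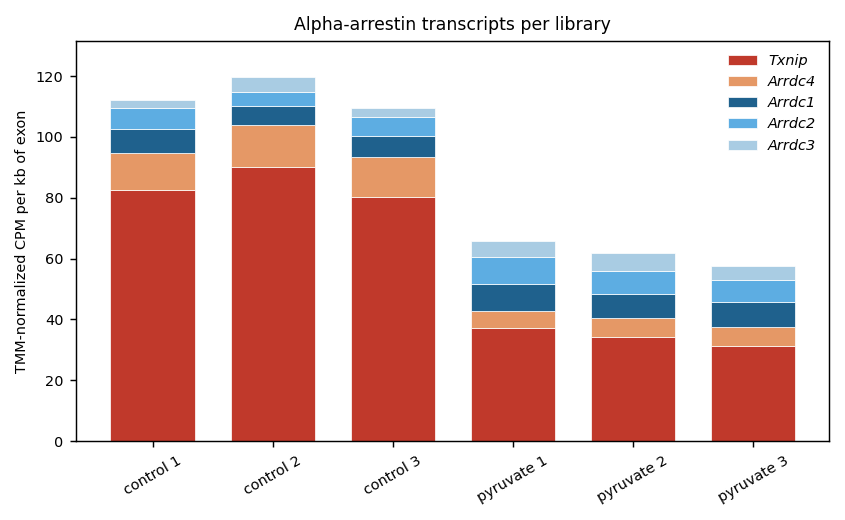
Level of the 5 alpha-arrestin transcripts in each library, stacked (y axis, TMM-normalized CPM per kb of exon, starting at 0). The control bars reach 109 to 120 CPM per kb and the pyruvate bars 57.6 to 65.9, with Txnip the largest segment in all 6.

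Of the transcription factors, the transcripts of Mlx and MondoA were near the same level in both media and that of ChREBP was higher in pyruvate medium. Mlx (ENSMUSG00000017801, chromosome 11, 101087277 to 101092207, plus strand), the shared partner, stood at 43.9, 40.8 and 40.0 CPM in control replicates 1, 2 and 3 and at 40.8, 41.5 and 39.2 CPM in the pyruvate replicates. Its log2 fold change was -0.036 (SE 0.083), with a 95% interval from -0.23 to 0.15. Without control replicate 2 it was -0.050. Mlxip (ENSMUSG00000038342, chromosome 5, 123394798 to 123457932, plus strand) stood at 122, 150.5 and 124 CPM in control and at 122, 129 and 125 CPM in pyruvate medium. Only control replicate 2 departed from the rest; the log2 fold change was -0.077 (95% interval -0.30 to 0.14), and 0.028 (-0.10 to 0.16) without that library.

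Mlxipl (ENSMUSG00000005373, chromosome 5, 135089890 to 135138382, plus strand) stood at 57.6, 54.1 and 52.1 CPM in control replicates 1, 2 and 3 and at 83.6, 72.7 and 67.1 CPM in the pyruvate replicates. The groups did not overlap, and the level was 1.36-fold higher in pyruvate medium (log2 0.45, SE 0.10, 95% interval 0.22 to 0.68). The log2 fold change was 0.44 without control replicate 2 and 0.36 without pyruvate replicate 1, the highest library. Per kilobase of union exon, Mlxip exceeded Mlxipl 1.61 ± 0.22-fold in control and 1.13 ± 0.14-fold in pyruvate medium, and in pyruvate replicate 1 Mlxipl was the higher of the pair. The ratio depends on the gene model. With the longest annotated transcript as the length, Mlxip and Mlxipl stood at 18.1 and 15.1 CPM per kb in control. ChREBP has a pair of promoters that give a long and a short, more active protein, and RefSeq has a window for each of 2 starts of the mouse gene. The gene-level counts do not separate them.

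Mlxipl and Arrdc3 were called by edgeR beside Txnip and Arrdc4 without control replicate 2, where 625 of 15042 genes (4.16%) were, and Mlxipl beside them by DESeq2 with all libraries, where 317 of 14912 (2.13%) were. Both fits are of the contrast that chose the set, so nothing is read from these calls.

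The exons of 4 of the 8 share bases with genes annotated on the other strand, and whether the counting used strand is not given in the sources used here. Txnip shares 606 bases, 19.4% of its exons, with the antisense gene Gm15441, which had 7 to 19 counts per library. Txnip had 238 to 800.1 times as many counts in the same library. Mlx shares 385 bases, 19.3% of its exons, with Psmc3ip, a recombination gene. Psmc3ip had 748 to 922 counts per library, close to the 838 to 1070 of Mlx, so the level of Mlx is uncertain. The overlaps of Mlxip and Mlxipl, with Gm15747 and Gm43500, covered 3.21% and 4.24% of their exons, and those genes had 0 to 4 counts and 0 counts. None of these counts shows how many reads from shared bases may have been left out of both genes.

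In control, levels per kilobase of union exon ran in the order Txnip, Mlx, Mlxip, Arrdc4, Mlxipl, Arrdc1, Arrdc2 and Arrdc3. Txnip stood at 84.3 ± 5.20 CPM per kb, between rank 360 and 521 of 14908 genes, and Mlx, next, at 20.8 ± 1.02 CPM per kb. Neighbours in this order had separate ranges over the control libraries, except Arrdc1 (6.26 to 7.79 CPM per kb) and Arrdc2 (4.81 to 6.80). Arrdc2 and Arrdc3 were separated by 4.81 against 4.78 CPM per kb only. In pyruvate medium Txnip was still the highest at 34.2 ± 3.11 CPM per kb, with a rank of 1559 to 1934. Arrdc4, at 6.03 ± 0.47 CPM per kb, lay below every Arrdc1 and Arrdc2 value and overlapped Arrdc3 (4.74 to 5.78 against 5.49 to 6.30). The ranges of Mlxip and Mlxipl also overlapped there, as did those of Arrdc1 and Arrdc2. The order depends on the gene model: with the longest annotated transcript as the length, Mlxipl (15.1 CPM per kb) stood above Arrdc4 (13.5) in control, the reverse of the order above. In the mean over all 6 libraries, that length also put Mlxipl above Mlxip and Arrdc1 above Arrdc4.

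Among 10860 other genes with a mean of at least 5 CPM, those whose log2 CPM followed Txnip most closely over the 6 libraries were Igf2bp2 (Pearson r = 0.997), Lix1l (0.995), Sh3tc2 (0.993), Slc38a4 (0.993) and Idh2 (0.992). All 5 were lower in pyruvate medium, with log2 fold changes from -0.87 for Slc38a4, an amino acid transporter, to -0.34 for Lix1l. Those closest to Arrdc4 were Psme3 (0.998), Rars2 (0.998), Ccnd1 (0.998), Ncbp1 (0.996) and Exo1 (0.996), with log2 fold changes from -0.58 for the cyclin Ccnd1 to -0.10 for Psme3. Arrdc4 itself ranked 34 for Txnip with r = 0.973. Mlxipl ran against both, with r = -0.86 to Txnip and -0.95 to Arrdc4. So did Arrdc1, Arrdc2 and Arrdc3, with r = -0.79, -0.73 and -0.70 to Txnip and -0.84, -0.81 and -0.73 to Arrdc4. These correlations describe 6 libraries that share the difference between media, and carry no test.

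The genes around these 8 were taken as 9 lists, with 103 genes of which 87 were tested. By edgeR's quasi-likelihood test over all genes, 0 of the 87 passed in either direction. At an unadjusted p under 0.05 there were 14, or 16.1%, against 14.4% of all tested genes, and limma-voom also called 0. DESeq2 called 4 of the 87, where it called 2.13% of all genes, and edgeR without control replicate 2 called 7, where it called 4.16%. Groups did not overlap for 11 of the 87 upward and 9 downward, 12.6% and 10.3%, against 11.9% and 10.6% of all genes. The median log2 fold change of all tested genes was -0.010.

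Of the other partners in the Max and Mlx network, 5 of 9 lay above 0, with a median of 0.11 (0.20 without control replicate 2). Mxd3, a repressor that pairs with Max, averaged 3.88 ± 0.76 CPM in control against 6.53 ± 1.06 CPM with pyruvate (log2 0.76, SE 0.19; adjusted p = 0.160 by edgeR). DESeq2 called it, and its adjusted p ran from 0.0371 to 0.409 over the alternatives. Mycn, a Myc family activator, stood at 163 ± 3.42 and 138 ± 2.56 CPM (log2 -0.24; adjusted p = 0.182 by edgeR).

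Other described targets of MondoA or ChREBP lay on both sides of 0. Of 15 tested, 9 lay above 0, with a median of 0.084, and 8 did so, with a median of 0.17, once control replicate 2 was left out. Leaving out control replicate 1 or 3 gave medians of 0.14 and 0.15. The groups did not overlap for 5 upward and 1 downward, against 11.9% and 10.6% of all genes. Pfkfb3, which makes the fructose bisphosphate that speeds glycolysis, averaged 6.26 ± 0.78 CPM in control against 9.84 ± 0.60 CPM with pyruvate (log2 0.65, SE 0.13; adjusted p = 0.116 by edgeR, 0.0126 to 0.394 over the alternatives). DESeq2 called it, as did edgeR without control replicate 2. The latter fit also called Acly (log2 0.24, adjusted p = 0.0449) and Scd1 (log2 0.33, adjusted p = 0.0444), both upward and both enzymes of lipid synthesis that sterol-responsive factors also control. Me1, the cytosolic malic enzyme, stood at 37.0 ± 0.99 and 30.3 ± 2.12 CPM (log2 -0.29; adjusted p = 0.213 by edgeR).

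**Figure D5:**
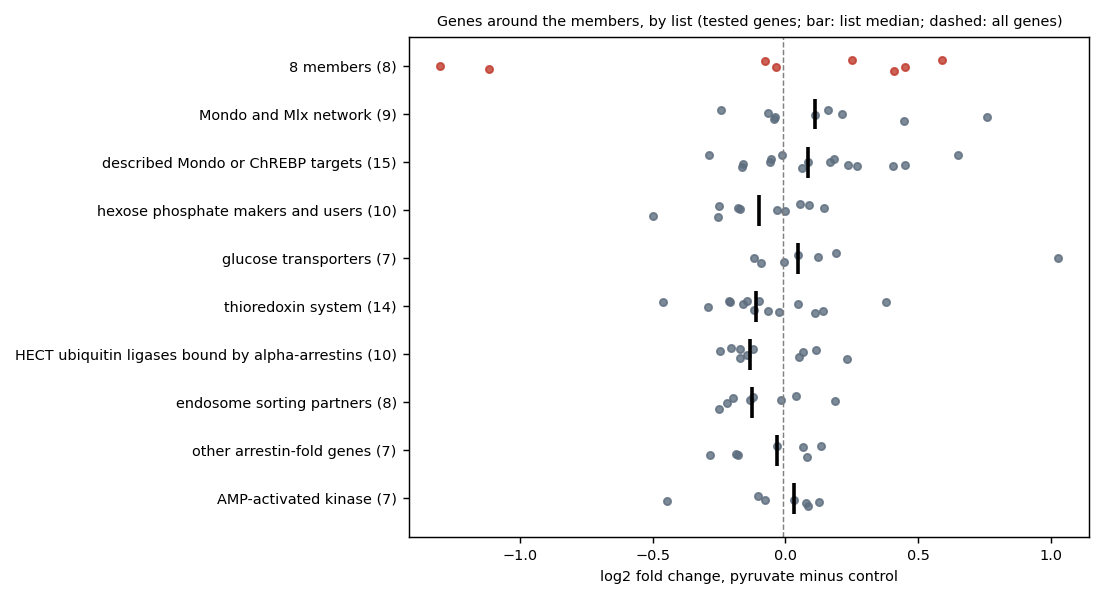
Log2 fold change (x axis, pyruvate minus control) of the 8 genes (top row) and of the tested genes in 9 lists around them (y axis, number tested in brackets), with each list's median as a bar and the median of all tested genes as a dashed line. Txnip and Arrdc4 lie at -1.30 and -1.12, while the list genes lie between -0.50 and 1.03.

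Genes that make or use hexose phosphates, the signal for the Mondo factors, lay above 0 in 3 of 10, with a median of -0.10. It was -0.012 without control replicate 1 and -0.014 among genes of at least 5 CPM in 3 libraries. Hk2, an inducible hexokinase, averaged 178 ± 16.1 CPM in control against 149.8 ± 16.1 CPM with pyruvate (log2 -0.25; adjusted p = 0.326 by edgeR). Slc37a4, the glucose 6-phosphate carrier of the endoplasmic reticulum, stood at log2 -0.26 (adjusted p = 0.467 by edgeR). Glucose transporters, the cargo whose surface level Txnip and Arrdc4 lower, lay above 0 in 4 of 7 with a median of 0.046. The median's sign changed in 4 of 14 alternatives, and leaving out pyruvate replicate 2 gave 0.17, pyruvate replicate 3 -0.019 and control replicate 1 0.086. Slc2a1 ranged from 93.2 to 106 CPM in control and from 99.0 to 126 CPM with pyruvate (log2 0.12, 95% interval -0.13 to 0.37). Its log2 fold change was 0.072 without control replicate 2 and 0.0089 without pyruvate replicate 1. Slc2a3 averaged 46.0 ± 3.81 and 45.8 ± 3.91 CPM (log2 -0.0050, 95% interval -0.24 to 0.23, 0.063 without control replicate 2), and Slc2a8 stood at log2 -0.12 (adjusted p = 0.658 by edgeR). The highest value of any list gene, 1.03 for Slc2a6, singled out after it was seen, came from at most 33 counts per library.

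The thioredoxin system, which Txnip restrains, lay below 0 in 10 of 14, with a median of -0.11. In this list 2 genes upward and 5 downward had groups that did not overlap, against 11.9% and 10.6% of all genes. Txn1, the cytosolic thioredoxin that Txnip binds, averaged 153 ± 20.5 CPM in control against 111 ± 7.75 CPM with pyruvate, and the groups did not overlap (131 to 170.2 against 105 to 120). Its log2 fold change was -0.46 (SE 0.11; adjusted p = 0.149 by edgeR). Without control replicate 2 Txn1 was -0.57 with adjusted p = 0.00431 by edgeR, DESeq2 with all libraries called it too, and its adjusted p ran up to 0.413 over the alternatives. Txnrd3, a thioredoxin reductase prominent in testis, stood at 60.5 ± 2.48 and 78.6 ± 3.42 CPM (log2 0.38; adjusted p = 0.124 by edgeR). DESeq2 called it, and without control replicate 2 edgeR gave adjusted p = 0.0252. That fit also called the peroxiredoxins Prdx1 (log2 -0.26, adjusted p = 0.0425) and Prdx4 (log2 -0.37, adjusted p = 0.0110), so that 3 genes of the list fell and 1 rose in it, where 274 fell and 351 rose of all 15042 genes.

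Ubiquitin ligases of the Nedd4 family and their adaptors lay above 0 in 4 of 10, with a median of -0.13, and at 0.011 without control replicate 2. Itch, the ligase that marks Txnip for degradation, stood at 71.8 ± 22.1 and 60.6 ± 9.18 CPM (log2 -0.25, 95% interval -0.72 to 0.23). Without control replicate 2 its log2 fold change was 0.036, so the direction rested on that library. Nedd4 stood at log2 -0.17 (-0.045 without that library) and Smurf1 at log2 0.11. Of the endosome sorting partners 2 of 8 lay above 0, with a median of -0.13 (-0.061 without control replicate 2). Tsg101, bound by Arrdc1, stood at 98.1 ± 3.02 and 84.3 ± 3.46 CPM (log2 -0.22; adjusted p = 0.241 by edgeR), and Hgs at log2 0.19 (adjusted p = 0.419 by edgeR; 0.12 on the log2 scale without control replicate 2).

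Other genes of the arrestin fold, among them the beta-arrestins and the Vps26 subunits of sorting complexes, lay above 0 in 3 of 7 with a median of -0.032, and between -0.066 and -0.0028 when 1 library was left out, the extremes coming without control replicate 1 and pyruvate replicate 3. This median was -0.056 without control replicate 2. By edgeR, Rgp1 had log2 -0.18 (adjusted p = 0.431) and Vps26c log2 0.13 (adjusted p = 0.541). Subunits of AMP-activated kinase, which phosphorylates Txnip, and their activator Stk11 lay above 0 in 4 of 7 with a median of 0.032. By edgeR, Prkaa2 had log2 -0.45 (SE 0.35, adjusted p = 0.596), but 0.075 without control replicate 2, so its direction too rested on that library. Stk11 had log2 0.12 (adjusted p = 0.623), and 0.027 without it. The kinase list's median was 0.075 without control replicate 2 and changed sign in 4 of 14 alternatives, among them leaving out control replicate 1 (-0.030), control replicate 3 (-0.025) or pyruvate replicate 2 (-0.068). That of the arrestin-fold list changed sign in 1.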

How the data were processed

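TRIzol extraction, column clean-up and a stranded mRNA library kit were used, per the labels' protocols. The authors deposited raw counts per Ensembl gene, 1 column per library. Per the submitters' processing notes, the tools were STAR 2.7.11a, HTSeq 2.0.5, cutadapt 4.6 and bcl2fastq 2.20, with build mm10. Annotation release, strand setting and any filtering: not given in the sources used here. The table's 3 columns of no sample used here were left out.

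Genes were kept by filterByExpr (minimum count 10), scaled by TMM and tested in R 4.3.3 with edgeR 4.0.16 (quasi-likelihood, robust, no covariate, Benjamini-Hochberg at 0.05 over all tested genes). A standard error is the absolute log2 fold change over the square root of F, and 95% intervals use the fit's degrees of freedom. Intervals come from counts and spread between these libraries only. Single-library log2 CPM used a prior count of 2. Positions and exon lengths are from GENCODE M21 on GRCm38; Dscr3 was matched as Vps26c. No protein sequences were used here, so the planned protein comparison was not run. Alternatives used DESeq2 1.42.0, limma 3.58.1, other scalings and filters, the replicate block, and leaving out each library. The fit was tested on simulated data.

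The members and lists were chosen with earlier results of these data known. Named genes are the 8 members, 6 fixed by name, in each list the 2 of lowest p with a mean of at least 5 CPM, and the 5 genes most like Txnip and Arrdc4. Acly, Scd1, Prdx1, Prdx4, Slc2a6 and Psmc3ip were named after their values were seen. So were the markers Bcl6b, Lhx1, Nanos2 and Nanos3 and those of differentiating or meiotic germ cells. The tandem half-site and CCAAT box searches were also added after values were seen.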

Additional observations from a re-analysis of the deposited data

How the results depend on the processing

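The fold changes of 6 of the 8 genes kept their sign in all 14 alternatives, and every member's value stayed within 1 SD of the spread between replicates. That SD came from all 6 libraries, and control replicate 2 widened it for Arrdc3. The Arrdc3 value moved from 0.59 to 0.89 without that library, so for it this is a weak check. The exceptions in sign, Mlx (0.0055 at the highest) and Mlxip (0.028), lie near 0. The count of 8 genes called over the table was 14 with library totals, 15 with upper-quartile scaling, 83 with no filter on low counts, 317 with DESeq2, and 0 to 625 when 1 library was left out. The count of 0 list genes was 4 with DESeq2 and 0 to 7 when 1 library was left out. With the replicate number as a block, 265 of 14912 genes were called, and 1 of the 87 tested list genes, Txn1. Arrdc3 and Mlxipl were among the genes called, beside Txnip and Arrdc4. This fit too is of the contrast that chose the set, so nothing is read from its member calls. Deviations of same-numbered libraries correlated at 0.31, 0.31 and -0.073 for numbers 1, 2 and 3. Control replicates 1 and 2 correlated best with their own number, and control replicate 3 with pyruvate replicate 1 (0.21). Deviations within a group depend on each other, so these correlations cannot settle whether the numbers pair the samples. The labels do not say that they do, so the main fit used no block. Cause was not tested for any of these shifts. With 3 libraries a group, and control replicate 2 and pyruvate replicate 1 apart from the rest, calls depended on the libraries kept more than fold changes did.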
